A study of Homo sapiens and Mus musculus with 33 samples.

Results

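The EGF receptor family and its ligands were followed here through 9 genes: the receptors EGFR, ERBB2 and ERBB3, the ligands EREG, AREG, TGFA, HBEGF and BTC, and the feedback inhibitor ERRFI1. They were taken by name from 35805 genes in the HCT116 RNA table and, by their mouse names, from 25965 genes in the colon table. Every peak within 2 kb of the interval of one of these genes was taken as well, which gave 42 of 40266 peaks in HCT116 cells, 27 of 30338 H3K18cr peaks in mouse colon epithelium and 14 of 27035 H3K4me3 peaks there. HCT116 is an established line of human colon cancer cells of epithelial type. It was grown for 18 h with 5 µM MS275 (entinostat, an inhibitor of class I histone deacetylases) or with its solvent DMSO, and no other agent was named for either group. RNA-seq had 4 libraries per treatment, and ChIP-seq of crotonylated (H3K18cr) and acetylated (H3K18ac) lysine 18 of histone H3 had 3 libraries per mark and treatment with 1 input library per treatment. The colon epithelium came from C57BL/6 male mice for which no treatment was named and no age was given, as 3 RNA-seq libraries of 3 mice, 2 H3K18cr libraries with 2 inputs and 3 libraries of H3K4me3, a mark of promoters, with 1 input. The study's text differs on whether a colon H3K18cr library held cells of 1 mouse or of combined colons, so those libraries are not taken as separate animals. The comparison of MS275 with DMSO asks how these genes and their chromatin marks respond when class I deacetylases are inhibited.

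EGFR and its relatives are tyrosine kinases of the cell surface that pair with each other when a ligand binds and pass the signal to the RAS and PI3K pathways. ERBB2 has no known ligand and acts as the partner of the others, while ERBB3 has little kinase activity and serves chiefly to recruit PI3K. The ligands are made as membrane proteins and are released by ADAM proteases. In the gut this system drives the renewal and repair of the epithelium, and AREG and EREG are commonly raised in colorectal cancer. ERRFI1 (also named MIG6) binds the kinase domain of EGFR and shuts it off, and its own gene is switched on by the signal.

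The promoters of the genes whose RNA was called only when same-numbered libraries were compared as pairs are shown first, since they differ in their core elements. RefSeq promoters of GRCh38.p14, which run from 250 bases before the start to 50 bases after it, were found for 8 of the 9 genes (ERBB3 had none in the table), and all 8 lay inside a peak of the HCT116 list. Capitals mark the motifs searched on both strands: the GC box written as GGGCGG, the TATA box written as TATAAA, and the cAMP response element written as TGACGTCA. The AP-1 site (letters TGACTCA), the E-box (letters CACGTG) and the ETS core (letters CCGGAAG) were searched too. No motif contains another. EREG lies at chr4:74364895-74365194 and AREG at chr4:74444886-74445185, on the plus strand of the same chromosome.

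EREG: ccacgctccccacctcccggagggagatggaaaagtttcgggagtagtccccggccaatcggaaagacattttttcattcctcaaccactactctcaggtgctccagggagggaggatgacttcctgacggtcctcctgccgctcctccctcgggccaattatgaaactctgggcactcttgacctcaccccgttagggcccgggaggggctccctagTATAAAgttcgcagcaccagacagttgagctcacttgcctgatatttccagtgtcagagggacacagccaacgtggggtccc

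AREG: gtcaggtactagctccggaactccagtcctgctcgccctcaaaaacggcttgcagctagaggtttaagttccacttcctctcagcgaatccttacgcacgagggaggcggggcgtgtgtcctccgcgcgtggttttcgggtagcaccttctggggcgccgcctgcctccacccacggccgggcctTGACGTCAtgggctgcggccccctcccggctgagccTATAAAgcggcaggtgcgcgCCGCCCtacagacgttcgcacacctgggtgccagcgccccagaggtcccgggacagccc

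EGFR lies at chr7:55018767-55019066 on the plus strand and TGFA at chr2:70553777-70554076 on the minus strand, both printed 5′ to 3′ in the direction of the gene.

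EGFR: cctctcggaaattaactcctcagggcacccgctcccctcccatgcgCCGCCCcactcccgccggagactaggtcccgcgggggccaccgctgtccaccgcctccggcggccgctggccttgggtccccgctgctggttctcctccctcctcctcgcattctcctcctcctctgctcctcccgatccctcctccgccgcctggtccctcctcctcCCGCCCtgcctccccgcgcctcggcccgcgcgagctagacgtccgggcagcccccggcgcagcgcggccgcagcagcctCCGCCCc

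TGFA: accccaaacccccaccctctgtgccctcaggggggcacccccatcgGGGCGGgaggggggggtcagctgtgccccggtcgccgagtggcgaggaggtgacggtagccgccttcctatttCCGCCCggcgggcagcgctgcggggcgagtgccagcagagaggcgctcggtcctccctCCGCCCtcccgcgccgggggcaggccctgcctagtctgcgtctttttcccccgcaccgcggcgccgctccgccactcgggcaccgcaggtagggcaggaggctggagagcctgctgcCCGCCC

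EREG and AREG were the 2 of 8 genes with TATAAA, beginning 32 and 29 bases before the start, a motif held by 11.5% of 35116 promoters of the same length. AREG also held TGACGTCA, beginning 65 bases before the start, which 1.85% of promoters hold. EGFR had 3 matches to GGGCGG and TGFA had 4, and 6 of the 8 promoters held at least 1, against 45.0% of all promoters. ERBB2 held CCGGAAG, present in 10.3% of promoters, and TGACTCA (4.95% of promoters) and CACGTG (7.26%) were in none of the 8. The ERBB2 promoter used here lies before the start of the canonical GENCODE transcript, which was in a separate peak. EREG and BTC had 12 CpG pairs each, below the median of 14 over all promoters, while EGFR had 33 and ERRFI1 had 47. A match is a description of the letters and does not show that a factor binds.

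Libraries numbered 3 of the HCT116 RNA stood apart in both treatments. Mitochondrial genes took 9.28% (DMSO) and 10.3% (MS275) of their counts, against 1.57% to 3.19% in the other 6 libraries, and their median correlation with their own group was 0.945 and 0.936, against at least 0.974 elsewhere. Totals lay between 35608533 and 53415604 counts in HCT116 and between 8166406 and 10707901 in colon. The label of an epithelial cell was borne out in colon, where the summed level of 7 epithelial markers was 6039 to 7136 CPM (counts scaled to a common library total), against 62.3 to 77.4 CPM for 6 immune markers and 30.2 to 45.6 CPM for 8 markers of stroma, vessels and muscle. In HCT116 the epithelial sum was 2700 to 3902 CPM with DMSO and 3387 to 4345 CPM with MS275, higher in each same-numbered pair, but KRT20 and VIL1, markers of mature enterocytes, were at 0.875 and 0.361 CPM in DMSO. The 8 markers of stroma, vessels and muscle summed to 8.17 to 13.8 CPM with DMSO and 15.9 to 22.4 CPM with MS275, and 5 immune markers to 5.76 to 8.82 and 4.36 to 11.3 CPM, with 3 of the 5 at 0. The sum of the stromal list was higher in every MS275 library than in any DMSO library, and the part of these marker shifts in the results was not tested. In ChIP-seq, reads in peaks lay between 2236551 and 5730094 per HCT116 library. The H3K18ac DMSO library 3 was the highest of its group at 8 of the 9 start peaks, while the H3K18cr DMSO library 3 was the lowest of its group at 9 of 9. The H3K18ac MS275 library 1 was the highest of its group at 9 of 9 as well.

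Levels between genes are compared only as CPM per kb of annotated exon, with all annotated exons of a gene merged into 1 length. In HCT116 cells with DMSO the order was led by the inhibitor and by 2 ligands: ERRFI1 at 145 ± 42.4 CPM per kb (SD, n = 4), EREG at 91.7 ± 23.7 and AREG at 81.2 ± 15.3, at percentiles 98.7, 97.7 and 97.4 of the 18019 genes with an exon length. Over the libraries, ERRFI1 overlapped with EREG and EREG with AREG. A gap of 7.92 times without overlap followed, and then came TGFA at 10.2 ± 3.09 CPM per kb and ERBB2 at 10.1 ± 1.39, which did not differ beyond their spread. EGFR, whose range lay below that of ERBB2 (a ratio of 1.96) but overlapped with that of TGFA, was at 5.15 ± 1.70, ERBB3 at 3.09 ± 0.593, BTC at 2.01 ± 0.589 and HBEGF at 1.75 ± 0.295 CPM per kb, each with a range that overlapped with its neighbour. EGFR itself stood at percentile 67.4.

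In mouse colon epithelium the receptors led instead. Erbb3 had 53.2 ± 3.78 CPM per kb (SD, n = 3) and Erbb2 42.1 ± 2.56, and their ranges over the 3 mice did not overlap with each other or with Errfi1 at 17.8 ± 0.545. Areg at 10.96 ± 4.66, Tgfa at 7.40 ± 0.214 and Egfr at 7.31 ± 1.29 CPM per kb were not separated beyond their spread. Hbegf followed at 2.82 ± 0.873, Btc at 0.934 ± 0.0604 and Ereg at 0.489 ± 0.231, in ranges that did not overlap. Mouse 3 had the fewest reads of both neighbouring ligand genes: Areg was at 16.0, 17.1 and 6.80 CPM and Ereg at 2.69, 2.43 and 0.928 CPM in mice 1 to 3, the latter from 22, 26 and 9 counts. Egfr, by contrast, was at 73.2, 99.6 and 75.6 CPM and Erbb3 at 298, 319 and 343 CPM.

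Set side by side, with no test since species, tables and cell states differ, Ereg was at percentile 44.4 of colon genes and EREG at percentile 97.7 of HCT116 genes. Areg was at percentile 77.3 and AREG at 97.4. The receptors stood the other way round, with Erbb3 at percentile 95.2 and ERBB3 at 59.3, and Erbb2 at 93.6 and ERBB2 at 78.5. Egfr (70.6) and EGFR (67.4), and Tgfa (70.8) and TGFA (79.0), were closer in rank. The exon lengths differed between species, at 11711 bp for ERBB3 and 6016 bp for Erbb3, and at 10321 bp for ERBB2 and 5210 bp for Erbb2. EGFR, EREG, AREG and ERRFI1 also had the longer length in human, and TGFA, HBEGF and BTC in mouse. A longer length lowers the level per kb, and its part in these ranks was not tested. In these bulk samples, fewer cells that make a transcript and less of it per cell cannot be told apart.

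**Figure D1:**
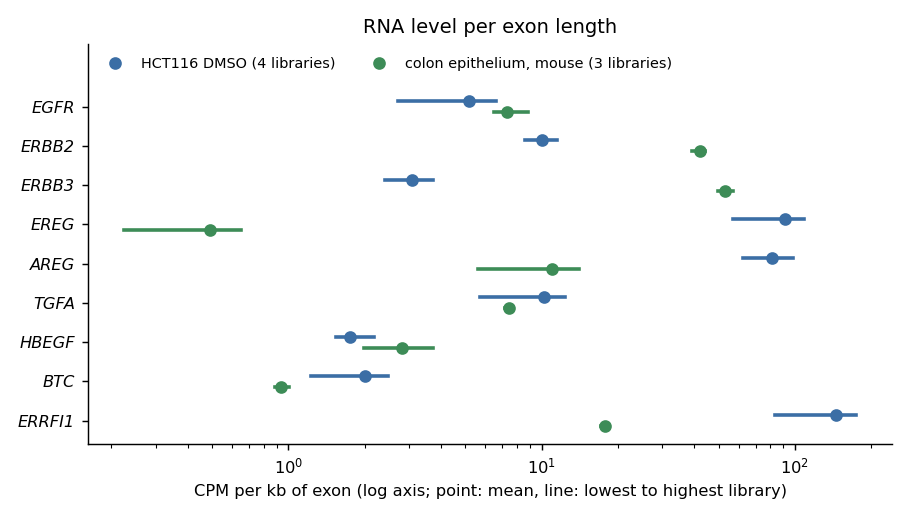
RNA level of the 9 genes as CPM per kb of exon on a log axis, in HCT116 cells with DMSO (blue, 4 libraries) and mouse colon epithelium (green, 3 libraries), with points at the mean and lines from the lowest to the highest library. EREG spans from 0.489 in colon to 91.7 in HCT116, while ERBB3 runs the other way, from 53.2 to 3.09.

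With MS275, 3 genes of the family rose and 1 fell when same-numbered libraries were compared as pairs. EGFR, AREG and TGFA were higher with MS275 in 4 of 4 pairs, by 1.34, 1.39 and 1.42 times, and EREG was lower in 4 of 4 pairs, at 0.656 of its DMSO level. None of these passed the test without the pairing, and over all 8 libraries the treatments overlapped for each of the 9 genes. By edgeR without a block, 0 of 9 genes were called, against a background of 1 of 14961 genes (0.00668%). In that fit 3 had an unadjusted p under 0.05, as did 6.6% of all genes. DESeq2 without a block called 0 as well, against 161 of 16218 genes. With same-numbered libraries as blocks, edgeR called 4 of 9 genes, against a background of 14.4% of genes in either direction, 7.83% higher and 6.55% lower. DESeq2 with the same blocks called 5 of 9, against 16.5% of genes. The median log2 change of the 9 genes was −0.00 with the block and that of all genes tested 0.01. All 4 genes were called again by the blocked fit in each of the 4 fits that left out 1 number, number 3 included.

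Among the receptors, EGFR was at 87.9, 91.5, 43.2 and 106 CPM in DMSO libraries 1 to 4 and at 128, 120, 50.6 and 153 CPM in the MS275 libraries. Both libraries numbered 3 were far below the others, and without them the 2 treatments did not overlap. The log2 change was 0.46 ± 0.34 (SE; edgeR adjusted p = 0.905) without the block and 0.43 ± 0.08 (edgeR adjusted p = 0.00465) with it. Leaving out 1 number at a time with the block gave log2 changes of 0.39 to 0.48, with edgeR adjusted p from 0.00155 to 0.0443. By Pearson correlation of log2 CPM over the 8 libraries, the genes most like EGFR were KLHL7 (r = 0.995), TBC1D4 (0.994) and VCAN (0.991), as a description only. EGFR is low in both libraries numbered 3, and their part in the likeness was not tested.

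ERBB2 moved the other way, although without passing the test. It was at 94.6, 118, 89.0 and 114 CPM in DMSO and at 78.3, 91.9, 85.9 and 96.2 CPM in MS275, lower in 4 of 4 pairs. Its log2 change was −0.24 ± 0.16 (edgeR adjusted p = 0.880) and −0.23 ± 0.08 with the block (edgeR adjusted p = 0.0631). It was called by DESeq2 with the block (adjusted p = 0.0339) and by the blocked edgeR fit without number 3 (adjusted p = 0.0167). ERBB3, at 28.1, 33.0, 39.7 and 43.8 CPM in DMSO and 36.3, 28.4, 33.5 and 44.8 CPM in MS275, was higher in 2 pairs and lower in 2, with a log2 change of −0.01 ± 0.12 (edgeR with block, adjusted p = 0.955).

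**Figure D2:**
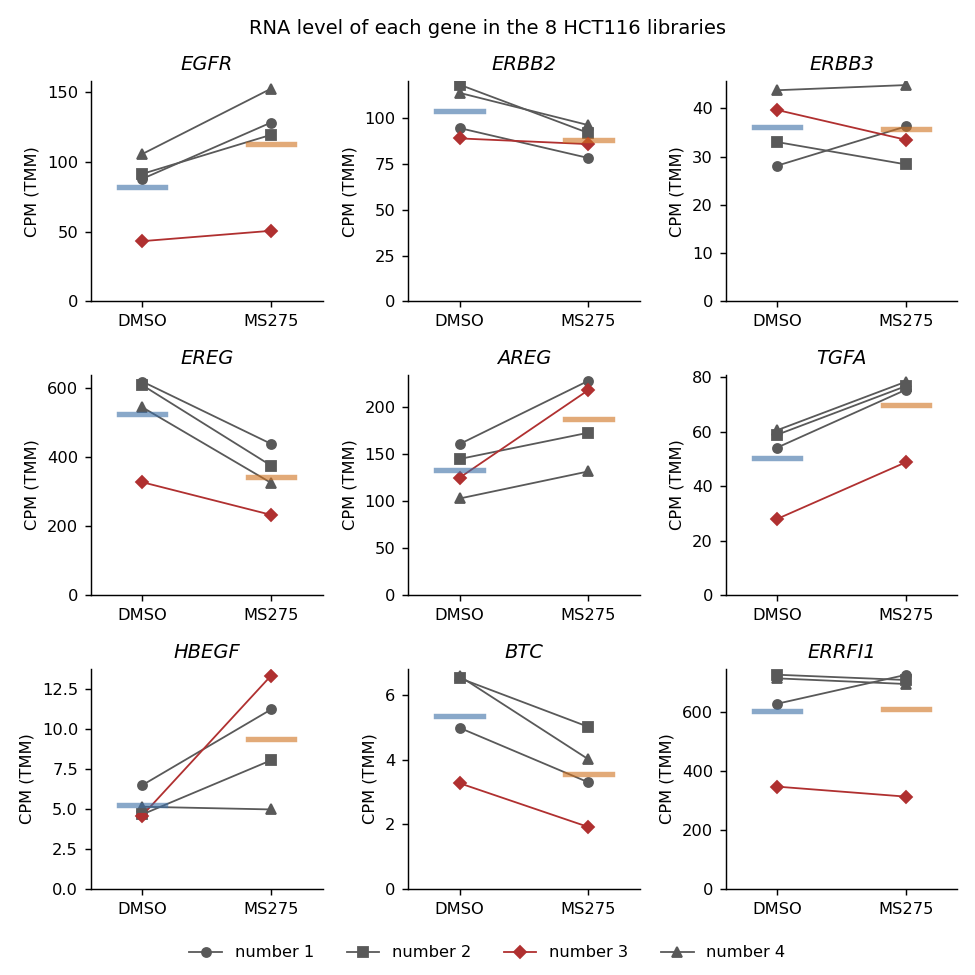
RNA level (CPM after TMM scaling) of each gene in the 8 HCT116 libraries, with a line joining libraries of the same number, red for number 3, and a thick bar at each group mean. The lines of EGFR, AREG and TGFA all rise from DMSO to MS275 and those of EREG all fall, while number 3 lies low in both treatments for EGFR, EREG, TGFA, BTC and ERRFI1.

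The ligand genes EREG and AREG, which lie near each other on chromosome 4, changed in opposite directions in the paired fit. EREG (epiregulin) was at 618, 607, 327 and 543 CPM in DMSO and at 438, 375, 232 and 325 CPM in MS275. Apart from number 3 the treatments did not overlap, and the pairs fell by 0.50, 0.70, 0.49 and 0.74 on the log2 scale. Its log2 change of −0.61 ± 0.06 with the block (edgeR adjusted p = 0.000145; −0.61 ± 0.24 and 0.669 without it) had the smallest p of the family. AREG (amphiregulin) was at 161, 145, 125 and 103 CPM in DMSO and at 228, 173, 218 and 132 CPM in MS275. Its treatments overlapped, since library 4 was the lowest of both, but each pair was higher with MS275. The log2 change was 0.48 ± 0.09 with the block (edgeR adjusted p = 0.00375; 0.49 ± 0.21 and 0.706 without it).

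TGFA (transforming growth factor alpha) was at 54.1, 58.9, 28.0 and 60.5 CPM in DMSO and at 75.4, 76.7, 48.8 and 78.3 CPM in MS275. Without number 3 the treatments did not overlap. Its log2 change was 0.51 ± 0.10 with the block (edgeR adjusted p = 0.00496; 0.47 ± 0.26 and 0.835 without it). EGFR, EREG and TGFA were the 3 of 9 genes whose treatments did not overlap among numbers 1, 2 and 4, against 18.9% of genes tested.

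HBEGF and BTC were rare transcripts. HBEGF, a ligand that also binds heparin, was at 6.50, 4.66, 4.60 and 5.15 CPM in DMSO and at 11.2, 8.06, 13.4 and 4.98 CPM in MS275. Pair 4 did not share the rise of the other 3, and the log2 change of 0.77 ± 0.26 with the block (edgeR adjusted p = 0.0674; 0.85 ± 0.32 and 0.620 without it) did not pass. The blocked change was 1.04 without number 4 (edgeR adjusted p = 0.0363) but 0.51 without number 3 (edgeR adjusted p = 0.182), and without number 1 or 2 it did not pass either (edgeR adjusted p = 0.201 and 0.172). BTC (betacellulin) was at 4.98, 6.51, 3.27 and 6.58 CPM in DMSO and at 3.29, 5.01, 1.91 and 4.01 CPM in MS275. It was lower in 4 of 4 pairs, but with 60 to 368 counts per library its log2 change of −0.61 ± 0.28 (edgeR with block, adjusted p = 0.170) did not pass.

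ERRFI1, the inhibitor, was the most abundant of the 9 and showed no change past the test. It was at 629, 727, 347 and 715 CPM in DMSO and at 727, 709, 313 and 696 CPM in MS275, higher in 1 pair and lower in 3. The log2 change with the block was −0.00 ± 0.06 (edgeR adjusted p = 0.982). Without the block it was 0.02 ± 0.30 (edgeR adjusted p = 0.998).

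**Figure D3:**
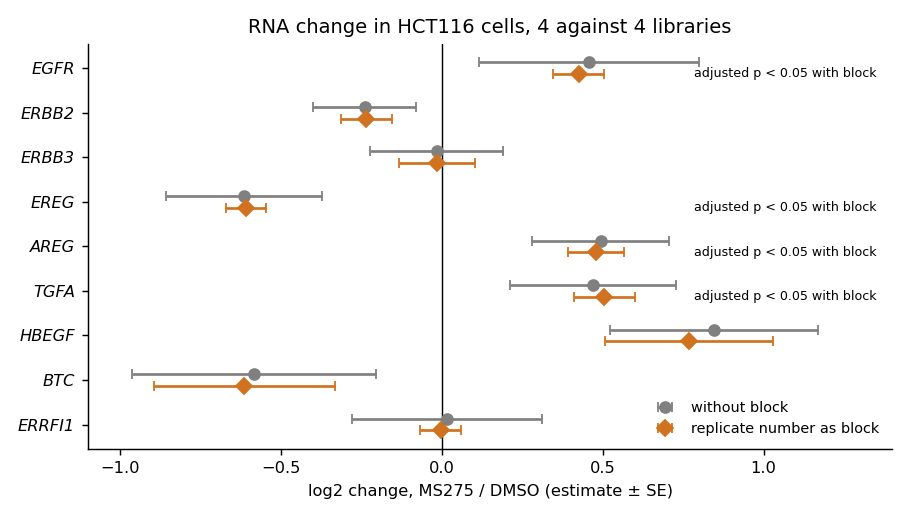
Log2 change of RNA between MS275 and DMSO with its SE, from edgeR without a block (grey) and with same-numbered libraries blocked (orange). The estimates hardly differ, but the SE shrinks with the block, from 0.34 to 0.08 for EGFR and from 0.24 to 0.06 for EREG.

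Of 43 further genes of the pathway, 40 were tested and 0 were called by edgeR without the block, while 7 (17.5%) were called with it, 5 higher and 2 lower, against the background of 14.4%. Among adaptors, GAB1, which links receptors to PI3K, rose by 0.94 ± 0.23 on the log2 scale (edgeR with block, adjusted p = 0.0164) and PLCG1, the phospholipase recruited by EGFR, by 0.49 ± 0.11 (adjusted p = 0.0112). STAT3, a transcription factor that receptors of this family activate, rose by 0.59 ± 0.07 (adjusted p = 0.000458). HRAS changed by −0.37 ± 0.10 (adjusted p = 0.0240) and the kinase AKT1 by −0.21 ± 0.07 (adjusted p = 0.0474), both lower in 4 of 4 pairs. CBL, the ubiquitin ligase that sends EGFR to degradation, rose by 0.46 ± 0.09 (adjusted p = 0.00624) and was the only 1 of 9 inhibitors called. None of the 4 genes of ligand release, among them ADAM10 and ADAM17, was called, and neither was any of the 4 other ligands tested. The fourth receptor, ERBB4, and the ligands NRG3 and EPGN were too low to be tested.

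All 9 genes had a peak over their start in HCT116 cells, and 3 of them lay in broad peaks. The start peak of EREG spanned 20.4 kb (chr4:74361301-74381700, from 3844 bp before the canonical GENCODE 44 start through exon 3 of 5), that of ERRFI1 18.9 kb (chr1:8017051-8035950, covering exon 1 of 4 and 9641 bp before it) and that of AREG 10.05 kb (chr4:74443801-74453850, exons 1 to 5 of 6). These widths were above 99.4%, 99.3% and 97.1% of the HCT116 peaks, whose median was 1950 bp. The start peaks of the other 6 genes spanned 2.7 to 4.8 kb. The broadest member peak lay within EGFR, where 14 of 18 peaks were inside intron 1, a stretch of 122.92 kb. It spanned 29.1 kb (chr7:55061551-55090650), and peaks of 11.55 kb (chr7:55103101-55114650) and 13.5 kb (chr7:55124101-55137600) followed in the same intron. The interval of EGFR in the RNA table ran past the annotated end, and 2 of its 18 peaks lay there. For ERBB2 the start of the table lies before that of the canonical transcript, whose start was in a separate peak that began 10637 bp further on.

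Values at peaks are scaled reads, that is, reads multiplied by the factor with which the authors brought each library to the size of the largest. On this scale most peaks with a gene start were lower with MS275. The median log2 change of the 10895 such peaks tested was −0.57 for H3K18cr, and over all peaks it was −0.20, whereas TMM scaling, which sets the typical peak level equal between libraries, moved the latter to 0.04. The corresponding medians over all H3K18ac peaks were −0.19 and 0.06. Changes are therefore given on both scales, as a lower or higher share of the reads, and neither scale can show a global change, as no spike-in was described.

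For H3K18cr, 9 of 42 member peaks were called lower and 0 higher by limma, against 23.4% of all peaks called lower and 0.236% higher. That share, and the 11 of 42 peaks whose treatments did not overlap (33.4% of all peaks), did not exceed the background. At the starts, 5 of 9 were called lower, against 59.8% of all peaks with a gene start, and their median log2 change of −0.48 was nearer to 0 than that of all such peaks. ERBB2 is counted there by a start that lies before its canonical one. With TMM scaling the calls were 3 of 42 (all lower) against 11.3% of all peaks called lower and 1.83% higher, and 2 of 9 at the starts against 32.7%. The count of 9 moved with single libraries, in fits for which the share of all peaks called was not counted. It was 4, 5 and 15 without DMSO libraries 1, 2 and 3, and 5 and 4 without MS275 libraries 1 and 2.

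The 3 peaks called at all 12 alternative settings were at EGFR and ERRFI1. How many of all peaks were called at all of these settings was not counted. All peaks with a gene start had a median log2 change of −0.57, and −0.33 with TMM scaling. The EGFR start peak (chr7:55016701-55021500) held 446, 366 and 258 scaled reads of H3K18cr in DMSO and 188, 228 and 203 in MS275, without overlap. Its log2 change was −0.76 ± 0.18 (limma adjusted p = 0.00165) and −0.52 ± 0.14 with TMM scaling (limma adjusted p = 0.0220). The 13.5 kb peak in intron 1 held 896, 890 and 753 scaled reads in DMSO and 475, 453 and 560 in MS275. It too was without overlap, at −0.77 ± 0.15 (limma adjusted p = 0.000328) and −0.53 ± 0.11 with TMM scaling (adjusted p = 0.00330). The ERRFI1 start peak held 1457, 1540 and 1370 scaled reads in DMSO and 794, 773 and 1167 in MS275, at −0.70 ± 0.16 (limma adjusted p = 0.00122) and −0.46 ± 0.12 with TMM scaling (adjusted p = 0.0168). The ERRFI1 peak also holds the start of RP11-431K24.1. The start peaks of both genes thus took a lower share of the H3K18cr reads with MS275, EGFR with more RNA in the paired fit and ERRFI1 with no called change of RNA.

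The calls at the other 6 peaks did not pass with TMM scaling. With TMM scaling and same-numbered libraries blocked, though the ChIP numbers did not pair the libraries, 8 of 42 peaks were called lower and 2 higher, against 18.1% and 5.8% of all peaks. The broad EREG start peak held 1422, 1205 and 1070 scaled reads in DMSO and 740, 806 and 1021 in MS275, at −0.53 ± 0.16 (limma adjusted p = 0.0109; −0.29 and 0.0951 with TMM scaling). AREG held 480, 538 and 371 scaled reads in DMSO and 299, 319 and 393 in MS275, which overlapped, at −0.45 ± 0.16 (limma adjusted p = 0.0422; −0.21 and 0.280 with TMM scaling). Both ligand genes thus had values below 0, though their RNA went in opposite directions in the paired fit. The difference between the peaks was not tested. ERBB2 had 162, 171 and 125 scaled reads in DMSO and 99.0, 93.5 and 94.0 in MS275 at the start peak (chr17:39686851-39689550), at −0.66 ± 0.18 (limma adjusted p = 0.00558; −0.43 and 0.0604 with TMM scaling). That peak overlaps no exon of the canonical transcript and lies before it, so its call is not one at the canonical start of ERBB2. The peak over the canonical start of ERBB2 (chr17:39698551-39702000), with 223, 194 and 187 scaled reads in DMSO and 172, 144 and 168 in MS275, was not called (−0.32 ± 0.17, limma adjusted p = 0.189; −0.08 and 0.737 with TMM scaling). The 29.1 kb peak in EGFR was at −0.48 ± 0.14 (limma adjusted p = 0.0116; −0.24 and 0.123 with TMM scaling). The remaining calls lay at the 3′ ends of the canonical transcripts: the peak after ERBB2 (chr17:39729001-39731850), at −0.63 ± 0.19 (limma adjusted p = 0.0149; −0.39 and 0.126 with TMM scaling), holds the start of MIEN1, and that at the end of ERBB3 (chr12:56103301-56106450), at −0.64 ± 0.18 (limma adjusted p = 0.00856; −0.40 and 0.0916 with TMM scaling), holds the start of PA2G4, so neither can be assigned to the receptor.

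The start peaks of TGFA, HBEGF, BTC and ERBB3 were not called by limma with all libraries and no block. With the block, that of BTC was called (limma adjusted p = 0.0240). Without DMSO library 3, limma called those of ERBB3 (−0.64, adjusted p = 0.00119), BTC (−0.64, adjusted p = 0.00502) and TGFA (−0.38, adjusted p = 0.0376). TGFA had 297, 277 and 232 scaled reads in DMSO and 236, 204 and 225 in MS275, at −0.27 ± 0.16 (limma adjusted p = 0.259; −0.03 and 0.882 with TMM scaling). BTC was at −0.48 ± 0.19 (limma adjusted p = 0.0645; −0.24 and 0.339 with TMM scaling) and ERBB3 at −0.40 ± 0.18 (limma adjusted p = 0.126; −0.16 and 0.522 with TMM scaling). HBEGF was the 1 start peak not below 0, with 145, 128 and 86.6 scaled reads in DMSO and 102, 136 and 118 in MS275, at 0.01 ± 0.19 (limma adjusted p = 0.986; 0.25 and 0.349 with TMM scaling). Its reads were 1.958 and 1.498 times the input in DMSO and MS275, the lowest of the 9 start peaks.

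**Figure D4:**
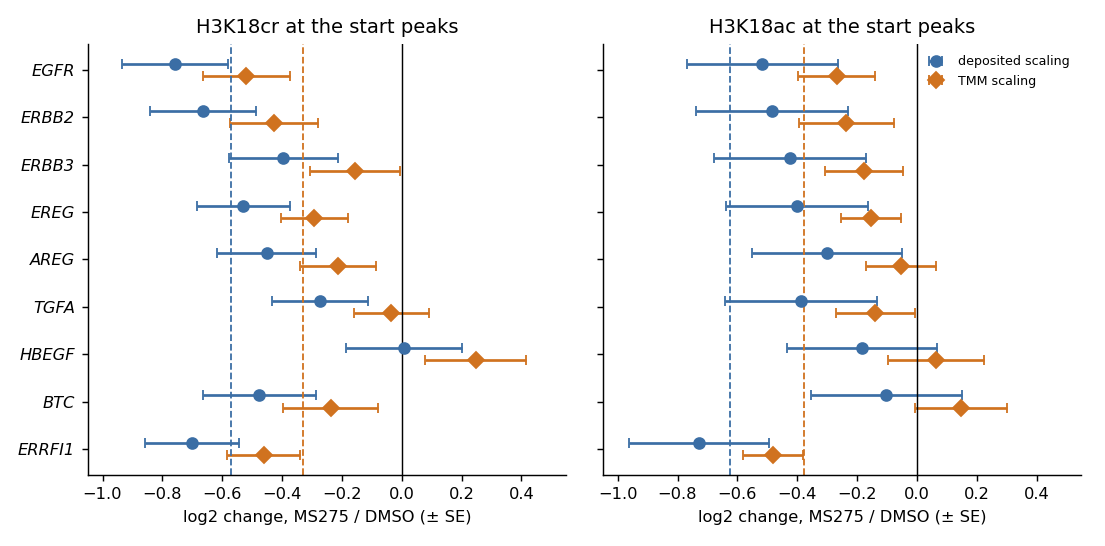
Log2 change of H3K18cr (left) and H3K18ac (right) at the start peak of each gene with its SE, on the deposited scaling (blue) and with TMM scaling (orange), with dashed lines in the same colours at the median of all peaks with a gene start. On the deposited scale EGFR, ERRFI1 and ERBB2 lie to the left of the blue line for H3K18cr, at −0.76, −0.70 and −0.66, and ERRFI1 alone does for H3K18ac, at −0.73. The ERBB2 peak shown is not the one over its canonical start.

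For H3K18ac, peaks at EGFR and ERRFI1 were again among those called. Of 42 member peaks, 4 were called lower and 0 higher by limma, against 16.6% of all peaks called lower and 0.261% higher, and 1 of 9 start peaks against 46.3% of all peaks with a gene start. The treatments did not overlap at 9 of 42 peaks, against 26.6% of all peaks. With TMM scaling 4 were called lower (background 16.8%, and 47.5% at gene starts, where it was 1 of 9) and 2 higher (background 4.57%), and with blocks added it was also 4 lower and 2 higher, against 15.6% and 3.61% of all peaks. Blocks on the deposited scale gave 0 of 42 by limma, with adjusted p = 0.215 at the ERRFI1 start peak and 0.279 at the 13.5 kb peak of EGFR. The ERRFI1 start peak had 1195, 1472 and 1919 scaled reads in DMSO and 969, 922 and 832 in MS275, at −0.73 ± 0.23 (limma adjusted p = 0.0156; −0.48 and 0.000207 with TMM scaling). The 13.5 kb peak of EGFR had 569, 730 and 963 scaled reads in DMSO and 544, 426 and 400 in MS275, at −0.70 ± 0.25 (limma adjusted p = 0.0296; −0.46 and 0.00130 with TMM scaling). The other 2 calls were the MIEN1 and PA2G4 peaks named above, at −0.98 ± 0.25 (limma adjusted p = 0.00238; −0.73 and 7.31e-05 with TMM scaling) and −0.76 ± 0.25 (limma adjusted p = 0.0211; −0.52 and 0.00571 with TMM scaling). The EGFR start peak, with 230, 231 and 341 scaled reads in DMSO and 196, 178 and 177 in MS275, did not pass (−0.52 ± 0.25, limma adjusted p = 0.165; −0.27 and 0.137 with TMM scaling). The 2 peaks called higher with TMM scaling were the 2.4 kb peak in intron 1 of EGFR (0.57, limma adjusted p = 0.0233) and the peak after the 3′ end of EREG (0.52, limma adjusted p = 0.0171), at 0.32 and 0.27 on the deposited scale. The count of 4 fell to 1 without DMSO library 2 or 3 and to 0 without MS275 library 2 or 3, where the share of all peaks was not counted.

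Whether the marks differed in their response was tested by an interaction term. By limma, 0 of 42 member peaks and 0 of 40237 peaks in all were called, with 0 and 736 at an unadjusted p under 0.05, and no other tool was run for it. At the EGFR start peak the change of H3K18cr less that of H3K18ac was −0.24 ± 0.30 on the log2 scale, at ERRFI1 0.03 ± 0.27 and at BTC −0.37 ± 0.32. With SE of this size, a difference as large as these could not be told from 0.

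**Figure D5:**
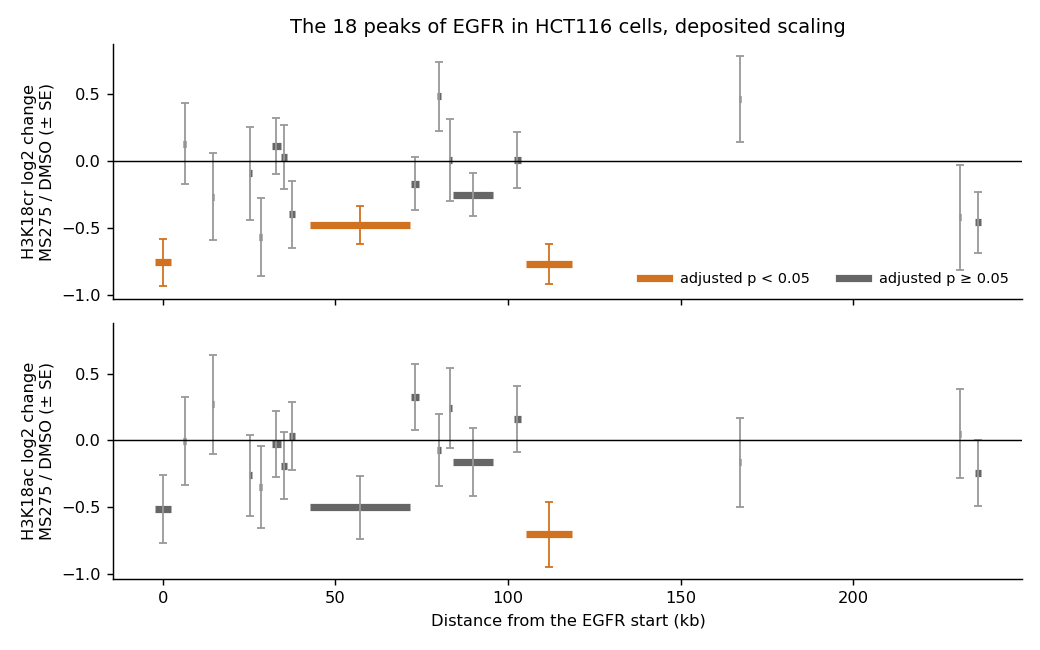
Log2 change of H3K18cr (top) and H3K18ac (bottom) between MS275 and DMSO at the 18 peaks of EGFR, by distance from the gene start in kb, with bars as wide as the peaks, SE as whiskers and calls by limma in orange. The start peak and the broad peaks of 29.1 and 13.5 kb are called lower for H3K18cr, and for H3K18ac only the 13.5 kb peak is.

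In mouse colon epithelium, where values are given without a test, each of the 9 genes again had a start peak of H3K18cr and of H3K4me3. For H3K18cr the log2 ratio of ChIP to input at the start peaks was 1.02 to 1.79 in library 1 and 1.26 to 2.42 in library 2, with medians of 1.63 and 2.04 against 1.17 and 1.48 over all 30338 peaks. For H3K4me3 the medians at the start peaks were 1.89, 2.72 and 2.92 in libraries 1 to 3, against 1.353, 1.787 and 2.011 over all 27035 peaks. Colon peaks with a gene start were not set apart from the others. The higher medians can therefore not be read as particular to these genes. Ereg, the gene with the least RNA, had the lowest ratio of the 9 for both marks, at 1.14 ± 0.17 for H3K18cr (SD, n = 2) and 1.53 ± 0.24 for H3K4me3 (SD, n = 3). Erbb3, the gene with the most RNA per kb, had an H3K18cr ratio of 2.10 ± 0.46, not separated from Tgfa at 2.02 ± 0.55, and Erbb2 had the highest mean H3K4me3 ratio at 3.67 ± 0.56. The Erbb2 start peak of H3K18cr spanned 9000 bp, the widest of the 27 peaks. It held 634 and 1198 scaled reads, above 99.8% of colon peaks in reads and above 88.4% in reads per kb. In HCT116 the broad start peaks were instead those of EREG, ERRFI1 and AREG. Ereg and Areg had colon start peaks of 2.25 and 1.65 kb.

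Most colon H3K18cr peaks in the gene bodies were apart from H3K4me3. Of 15 H3K18cr peaks in gene bodies 1 overlapped with an H3K4me3 peak, against 9 of 9 at starts and 3 of 3 after the 3′ ends, where the peak after Erbb2 holds the starts of 1810046J19Rik and Gm12352 and 1 peak after Erbb3 holds that of Pa2g4. Egfr alone had 7 such body peaks, between 16898 and 163748 bp from its start.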

How the data were processed

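RNA-seq (HCT116 and mouse colon epithelium) and ChIP-seq (H3K18cr, H3K18ac, H3K4me3) were used from 33 libraries in 5 tables. The authors trimmed reads with Trim Galore, mapped ChIP-seq with Bowtie2 (GRCh38 or GRCm38), removed duplicates, called 1 peak list per table with MACS in SEQMONK and counted reads per gene there. HiSat2 is stated for mouse RNA-seq, and the strand setting of the counting is not given in the sources used here. The submitters' processing notes name Trim Galore 0.4.2, Bowtie2 2.2.5 and TopHat2 2.0.12. The RNA tables were deposited as raw counts. The HCT116 peak table was deposited as log2 of reads scaled to the largest library, with an empty peak held at 0.9 read. The colon peak tables were deposited as signal, that is, reads scaled in the same way. Whole reads were recovered from these values with a tolerance of 0.02. No spike-in was described, and sodium butyrate, itself a deacetylase inhibitor, was in the sonication buffer.

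Groups followed the labels. For RNA, edgeR 4.0.16 in R 4.3.3 gave a quasi-likelihood test after TMM scaling for the 14961 genes that passed filterByExpr, which all 9 genes did. HCT116 peaks with at least 10 reads in at least 3 libraries, all 42 member peaks among them, were tested with limma 3.58.1 on the deposited log2 values, and the difference between marks by an interaction term. The adjusted p (Benjamini-Hochberg over all features) was called under 0.05. Values ± are SD or, for changes, SE. The 9 genes, the pathway list and the named peaks (the start peak of each gene and any peak called) were chosen with earlier results of these data known. The RNA libraries were taken as paired, because deviations from the group means correlated within each replicate number (r = 0.226, 0.151, 0.434 and 0.460 for numbers 1 to 4). The labels do not say that a number marks a shared culture, and DMSO library 2 correlated more with MS275 library 4 (r = 0.239). The p-values measure the spread between libraries of 1 cell line. In simulated data with 200 changed features, edgeR recovered 199 (200 with the block). Limma recovered 184 for H3K18cr and 185 for H3K18ac, and the interaction test 136. Recovery at the effect sizes and the spread between libraries reported here was not tested. Colon values are given without a test. Ratios of ChIP to input used a pseudocount of 1 scaled read.

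Alternatives were DESeq2 1.42.0, another normalization, no filter, the replicate number as a block, TMM scaling or count tests of the recovered reads for peaks, other peak windows and leaving out libraries. Leaving out both libraries of a number, combining TMM scaling with the block, and leaving out libraries for the difference between marks were chosen after seeing the data. Promoters came from RefSeq (GRCh38.p14), human exons from GENCODE 44 and mouse exons from a separate mouse release of GENCODE. The values of 1 further pathway gene that was called are not reported here.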

Additional observations from a re-analysis of the deposited data

Results flagged for a closer look

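Among 18 groups of 4 libraries (9 genes, both treatments), 2 values lay far below the rest of their group by Dixon's test. TGFA was at 48.8 CPM and ERRFI1 at 313 CPM in MS275 library 3, one of the libraries rich in mitochondrial counts. Of 18 groups, chance alone would flag about 1.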

How the results depend on the processing

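Without the block, no member was called in any fit, whichever library was left out. With the replicate block edgeR called 4 and DESeq2 5 of the 9 genes, and leaving out 1 number with the block gave 4 to 5. All other RNA directions held except ERRFI1, at −0.00319 with the replicate block and −0.00977 with DESeq2 and the block (−0.18 to 0.23 on leaving out 1 library, −0.0582 without number 1, and with the block −0.0735 and −0.00499 without numbers 1 and 2), and ERBB3 (−0.14 to 0.0908, 0.0280 and 0.0512 without numbers 2 and 3, and with the block 0.0404 and 0.0531). For H3K18cr the 9 calls became 3 with TMM scaling, with edgeR on reads and with DESeq2 on reads, and 4 to 15 on leaving out 1 library (4 without DMSO library 1 or MS275 library 2, 5 without DMSO library 2 or MS275 library 1, 15 without DMSO library 3). For H3K18ac the 4 calls became 0 with the replicate block and 0 to 5 on leaving out 1 library (1 without DMSO library 2 or 3, 0 without MS275 library 2 or 3). The share of all genes or peaks called was not counted in the fits that left out libraries. For peaks, the count tests on reads and the block on the deposited scale lack that share too. These shifts can therefore not be read as particular to these genes. ChIP numbers did not pair the libraries (r = 0.111, 0.0787 and 0.241 for H3K18cr, and −0.208, 0.0487 and −0.136 for H3K18ac), and the block gave 10 calls for H3K18cr, the BTC start among them (limma adjusted p = 0.0240). TMM scaling with the block, chosen after seeing the data, gave 10 for H3K18cr (8 lower, 2 higher, against 18.1% and 5.8% of all peaks; EREG start adjusted p = 0.00542, ERBB2 start 0.0113, the 29.1 kb peak of EGFR 0.0140, by limma) and 6 for H3K18ac (4 lower, 2 higher, against 15.6% and 3.61%), and TMM scaling or edgeR on reads without the block gave 6 for H3K18ac. The HBEGF start peak ranged from −0.21 to 0.16 for H3K18cr on leaving out libraries, and for H3K18ac turned to 0.0649 with TMM scaling (with and without the block), 0.0859 with edgeR and 0.0706 with DESeq2. BTC for H3K18ac turned to 0.15 with TMM scaling (with and without the block), 0.14 with edgeR and with DESeq2, and ranged from −0.32 to 0.0741. The cause was not tested. Calls that changed with the scaling limit what can be said of single peaks, and 3 libraries per group limit the marks' comparison.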
